A study of Caenorhabditis elegans with 123 samples.

Results

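The comparison described here sets Caenorhabditis elegans embryos of the genotype pie-1(zu154); pal-1(RNAi) at 83 min against embryos of the same genotype at 0 min, with time counted from the 4-cell stage at 22 °C. Its members are the 3 arrays labelled with that genotype and 83 min (replicates 1, 2 and 3) and the 4 arrays labelled with it and 0 min (replicates 1, 2, 3 and 4), 7 of the 34 Affymetrix arrays of this genotype, beside 89 arrays of the other 3 genotypes in the series. Both times therefore carry the same genotype label, with the pie-1 mutation and RNA interference against pal-1, and the comparison is by time, not by genotype. The genotype was sampled at 10 times, and the arrays at 23, 41, 53 and 66 min are used below for the course between the ends. The change was also set against the changes over the same 2 times in pie-1(zu154) embryos without RNA interference (2 arrays at 83 min and 2 at 0 min), in mex-3(zu155); skn-1(RNAi) embryos (4 and 3) and in N2, the standard wild-type strain (4 and 3). Each array holds RNA of whole staged embryos, so a value averages over all cells of the embryos. For replicates 1 and 2 the array descriptions state that the mothers fed on pal-1(RNAi) food, while those of replicates 3 and 4 mention no food. Replicate 4 is at 0 min only, so this mention is not balanced between the times.

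PIE-1 is a maternal zinc finger protein that keeps RNA polymerase II transcription off in the germline blastomeres. Without it the P2 blastomere takes on a fate like that of its sister cell EMS, and cells that should become germline and posterior soma make pharynx and intestine under the transcription factor SKN-1. PAL-1 is a caudal-type homeobox protein that directs the C and D blastomeres to make epidermis and body wall muscle. Between the 4-cell stage and the start of gastrulation the embryo also passes from maternal to zygotic control: maternal transcripts are removed, and zygotic genes for the founder lineages come on. MEX-3, an RNA-binding protein, acts on maternal messages including that of pal-1 in the anterior of the embryo.

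Values are the authors' log2 values, 1 per probe set and array. A change is the mean at 83 min minus the mean at 0 min, and its SE and p-value come from limma's moderated test on a linear model over all arrays. A probe set was called, and is said to have risen or fallen, where the Benjamini-Hochberg adjusted p was under 0.05 and the change at least 2-fold, which is 1 on the log2 scale. The 7 arrays had medians from 3.24 to 3.34, and values near 3 are close to the bottom of the scale. Correlations between arrays of the same time lay between 0.95 and 0.975, and those between arrays of different times between 0.733 and 0.79. Replicates 1 and 2 were scanned on 1 day and replicates 3 and 4 on another, so both scan days hold both times. Scan day runs together with the mention of pal-1(RNAi) food, so the 2 cannot be told apart. Replicate 3 was on another chip lot than replicates 1, 2 and 4, at both times. The 3′ minus 5′ difference of the GAPDH control probe sets, a measure of RNA integrity, ranged from 1.19 to 1.62 at 83 min and from 1.04 to 1.55 at 0 min. The labels do not say whether replicates came from separate cultures, so the p-values measure the spread between these samples.

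The targeted genes were examined first. The pie-1 probe set read 3.3, 3.3 and 3.58 at 83 min, against 3.45, 3.64, 3.24 and 3.6 at 0 min. All 7 values lie near the bottom of the scale, as did those of pie-1 embryos (3.6 to 3.74 at 83 min and 3.51 to 3.52 at 0 min), while N2 embryos had values from 5.17 to 5.59 at 83 min and from 7.76 to 8.2 at 0 min. The brightest of 3 pal-1 probe sets read 6.38, 6.26 and 5.73 at 83 min, against 5.26, 4.95, 5.36 and 5.32 at 0 min. Those groups do not overlap, but the fitted change of 0.9 ± 0.86 did not pass the test (limma, adjusted p = 0.589). pal-1 also varied widely between arrays of this genotype at the other times, and that spread enters the SE: its array values spanned 4.98 to 9.38 at 23 min, 5.55 to 12.21 at 41 min, 5.62 to 7.73 at 53 min and 5.69 to 7.83 at 66 min. Within the scan day of replicates 1 and 2 alone its change was 1.21 and was called (limma, adjusted p = 0.00258), and within that of replicates 3 and 4 it was 0.39 and was not (adjusted p = 0.626). With only the 7 arrays in the fit the adjusted p was 0.00587, at a change still under the 2-fold minimum. In pie-1 embryos, which had no RNA interference, the same probe set read 6.44 to 7.55 at 83 min and 8.76 to 9.08 at 0 min, so at 0 min it was higher than in every pie-1; pal-1(RNAi) array. The other pal-1 probe sets were lower, with means of 3.48 and 3.6 at 83 min and of 3.5 and 3.35 at 0 min.

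Of 22548 probe sets tested, 1395 rose and 1986 fell between the 2 times, so 6.19% were called as higher and 8.81% as lower at 83 min. The median change over all probe sets was -0.01. Among the calls, 1371 rises and 1893 falls had groups that did not overlap, against 12.2% and 14.3% of all probe sets that were higher or lower in every 83 min array. Rises were larger at the extreme: 100 probe sets rose and 52 fell by 16-fold or more. A called rise had a median level of 6.4 at 83 min and 4.0 at 0 min, and a called fall a median of 4.21 at 83 min and 6.16 at 0 min. With 1 probe set a gene, the brightest, 1096 of 17118 genes rose (6.4%) and 1625 fell (9.49%), the shares against which the counts of each list below are read. Over the same 2 times 5.33% of these genes were called higher in pie-1, 5.25% in mex-3; skn-1(RNAi) and 7.07% in N2 embryos. In whole embryos, fewer cells of a type and less RNA per cell cannot be told apart. Lists and their members were chosen with earlier results of these data known, so the list counts are descriptions. Within the scan day of replicates 1 and 2 alone 3533 probe sets were called, and within that of replicates 3 and 4, which has 1 array at 83 min, 1269, of which 1263 had the same call in the whole comparison.

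**Figure D1:**
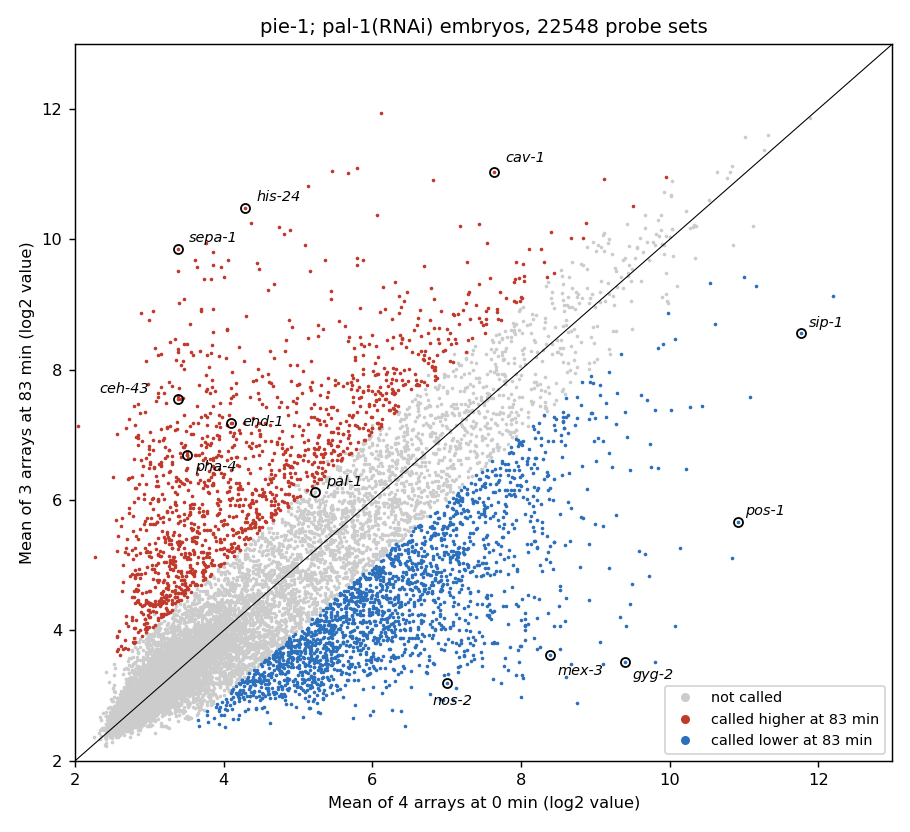
Each point is 1 of 22548 probe sets, with the mean of the 4 arrays at 0 min on the x axis and of the 3 arrays at 83 min on the y axis (log2 values), the line marks equal levels, and circles mark named genes. The 1395 called rises lie above the line, with sepa-1 and his-24 near the top left, and the 1986 called falls below it, with pos-1, gyg-2 and mex-3 at the lower right.

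The 12 genes with the largest rises had means from 2.89 to 5.14 at 0 min, and all but skr-13, at 5.14, were at or below 4.29. sepa-1, which encodes an adaptor for the autophagic removal of P granule proteins from somatic cells, had the largest. It read 9.49, 10.12 and 9.97 at 83 min, against 3.51, 3.06, 2.64 and 4.32 at 0 min, a change of 6.48 ± 0.37 or 89.1-fold (limma, adjusted p = 1.53e-27). his-24, a linker histone gene, read 10.55, 10.3 and 10.61 at 83 min, against 4.5, 3.75, 4.33 and 4.58 at 0 min, a change of 6.19 ± 0.3. dsl-2, a gene for a Notch ligand of the DSL family, read 9.82, 10.41 and 9.64 at 83 min, against 3.96, 3.73, 3.15 and 4.2 at 0 min. Its change of 6.19 ± 0.32 was followed by 5.77 ± 0.27 for dsl-1 of the same ligand family. The other leading genes were hmg-11, an AT-hook chromatin gene (6.13), the sequence-named Y71A12B.11 (6.08), lbp-1 for a fatty acid binding protein (5.98), the very early transcripts vet-2 (5.95) and vet-6 (5.93), sdz-28 from the class of SKN-1 dependent zygotic transcripts (5.86), the Skp1-related ubiquitin ligase gene skr-13 (5.67) and the BTB domain gene btb-11 (5.66). The 12 were picked among called rises without overlap, so by that rule each array at 83 min lay above each array at 0 min. These genes rose in the other genotypes too: sepa-1 changed by 6.22 in pie-1, 5.42 in mex-3; skn-1(RNAi) and 6.46 in N2 embryos, and his-24 by 5.75, 5.29 and 6.24, while lbp-1 changed by 4.07, 4.08 and 4.65. A second his-24 probe set rose by 4.15 ± 0.44 and a second vet-2 probe set by 2.75 ± 0.48, so the size depends on the probe set.

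Early zygotic genes as a list moved 1 way. Of 61 listed genes 52 were measured, and 30 rose while none fell, with a median change of 1.76 against -0.01 over all genes and 6.4% of all genes called higher. vet-1 rose by 5.18, sdz-30 by 5.09 and pes-10, an early marker of somatic transcription, by 4.64. sdz-14 read 8.14, 7.89 and 8.83 at 83 min, against 4.05, 3.08, 4.02 and 3.58 at 0 min, and sdz-18 rose by 4.43 ± 0.31. In contrast, 22 members did not pass, among them med-1, an EMS regulator of a pair with near-identical copies (-0.22), which is known as a short pulse around the 4-cell stage. The counts under all 3 other scalings were also 30 rises.

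**Figure D2:**
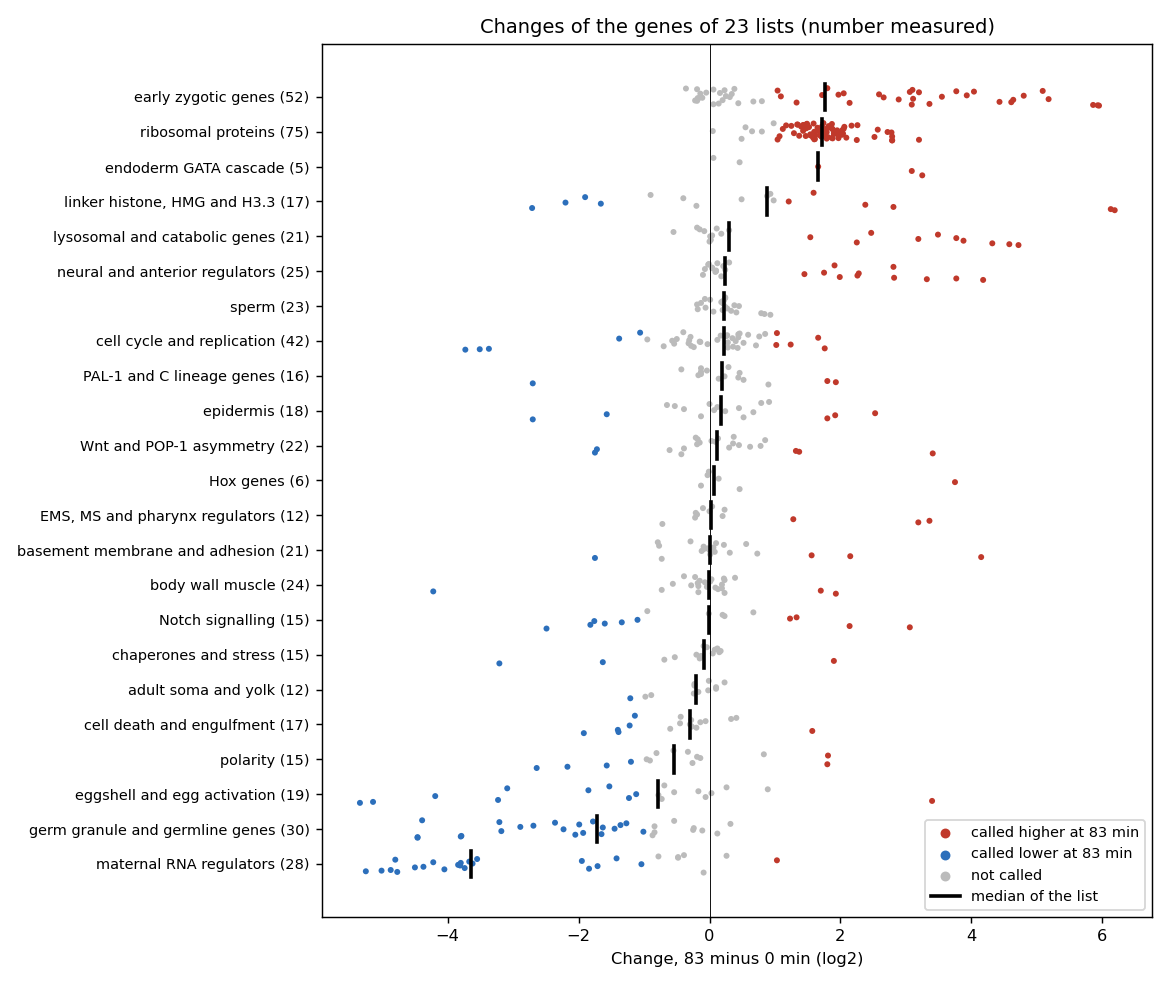
Each point is a gene of 1 of 23 lists, placed by its change between 83 and 0 min (log2) and coloured by its call, with the number of measured genes in brackets and a bar at each list's median. Early zygotic genes and ribosomal protein genes lie to the right with medians of 1.76 and 1.72, and maternal RNA regulators far to the left with a median of -3.64.

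The endoderm cascade runs from the MED and END GATA factors, which start intestinal fate in the E blastomere, to ELT-7 and ELT-2, which maintain it. Of 5 genes measured, 3 rose and none fell. end-1 read 7.17, 7.21 and 7.19 at 83 min, against 4.16, 3.9, 4.5 and 3.83 at 0 min, a change of 3.09 ± 0.28 or 8.53-fold (limma, adjusted p = 1.19e-16). dve-1, a homeobox gene active in intestine, rose by 3.25 ± 0.29, with 6.95, 7.03 and 6.89 at 83 min, against 3.77, 3.6, 4.03 and 3.43 at 0 min, and a second, dimmer dve-1 probe set changed by 0.55 and was not called. elt-7 rose by 1.66 ± 0.22, with 4.92, 5.52 and 5.11 at 83 min, against 3.76, 3.51, 3.49 and 3.34 at 0 min. The 3 rising genes thus stood clear of their 0 min arrays, while the others did not. elt-2 averaged 3.73 ± 0.24 at 83 min and 3.27 ± 0.28 at 0 min (SD, n = 3 and 4; limma, adjusted p = 0.112). end-3 averaged 3.3 at 83 min and 3.23 at 0 min, but its means ran 3.23, 4.06, 4.5, 3.94, 3.44 and 3.3 over 0, 23, 41, 53, 66 and 83 min, a passage through a peak that the end points alone do not show.

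Regulators of the EMS and MS lineages and of the pharynx gave 3 rises and no fall among 12 measured. pha-4, the FoxA gene that gives the pharynx its organ identity, read 6.85, 6.77 and 6.45 at 83 min, against 3.27, 3.38, 3.35 and 4.01 at 0 min, a change of 3.19 ± 0.27 (limma, adjusted p = 2.83e-18). ceh-51, a homeobox gene of the MS lineage, read 7.18, 6.57 and 6.24 at 83 min, against 3.06, 3.21, 3.38 and 3.56 at 0 min, a change of 3.36 ± 0.28. eya-1, the eyes absent homologue, rose by 1.28 ± 0.31. Dimmer second probe sets of pha-4 (0.75) and eya-1 (0.67) were not called. The maternal gene skn-1 itself differed between its probe sets: the brightest changed by -0.72 ± 0.2, under the 2-fold minimum, and another fell by 1.76, with 3.03, 3.22 and 3.11 at 83 min, against 4.92, 4.07, 4.96 and 5.57 at 0 min. The list as a whole did not shift, with a median change of 0.02.

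Of 16 PAL-1 and C lineage genes, all measured, 2 rose and 1 fell, with a median change of 0.19. hnd-1, a Hand-type factor of muscle precursors, read 4.65, 5.3 and 4.91 at 83 min, against 3.1, 3.04, 2.99 and 2.98 at 0 min, a change of 1.93 ± 0.38. elt-1, the GATA factor at the head of the epidermal cascade, read 5.72, 4.99 and 5.42 at 83 min, against 3.59, 3.75, 3.06 and 3.88 at 0 min, a change of 1.8 ± 0.41. Both are also used outside the C lineage, and both rose late: hnd-1 had means of 3.12 at 53 min, 3.24 at 66 min and 4.95 at 83 min. lin-26, an epidermal zinc finger gene with a maternal transcript, fell by 2.7, with 5.6, 5.56 and 5.55 at 83 min, against 8.3, 8.47, 7.75 and 8.59 at 0 min. The muscle factors hlh-1 and unc-120 stayed near the bottom of the scale, with averages of 2.94 ± 0.14 and 3.17 ± 0.12 at 83 min (SD, n = 3) and of 2.71 ± 0.15 and 3.33 ± 0.29 at 0 min (SD, n = 4), and neither was called. cwn-1, a Wnt ligand gene, averaged 2.89 at 83 min and 3.32 at 0 min, where replicate 1 alone read 5.27 and the other arrays 2.66 to 2.69. Its change of -0.43 was not called and turned to 0.21 without that array.

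**Figure D3:**
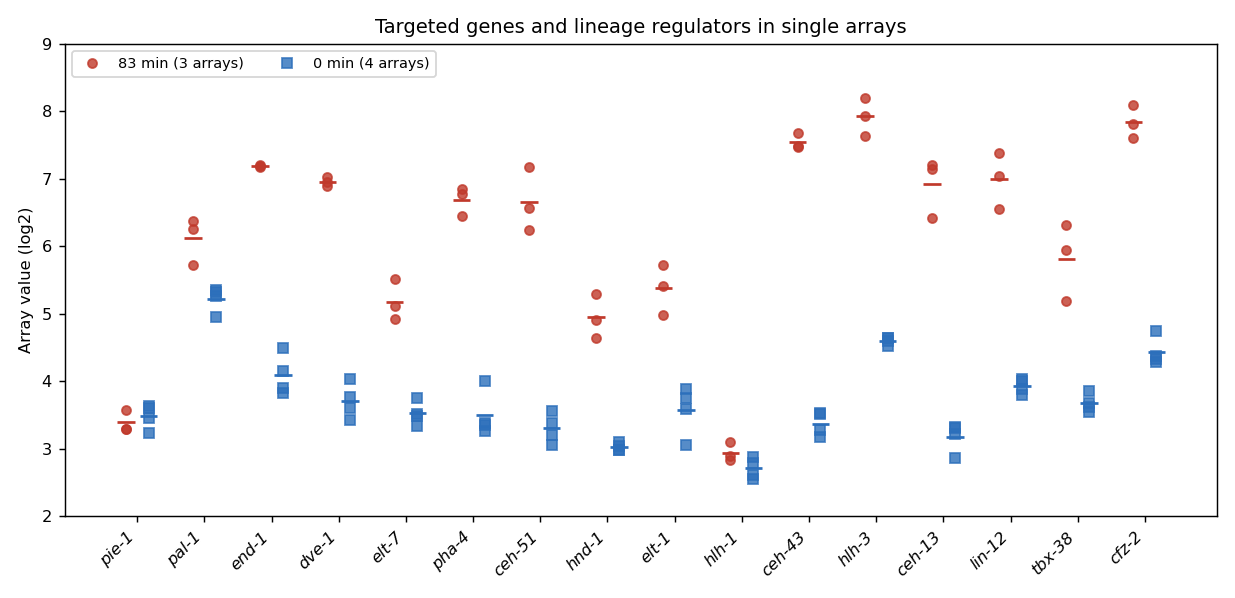
Array values (log2) of the targeted genes and of lineage regulators, with the 3 arrays at 83 min as circles on the left and the 4 arrays at 0 min as squares on the right of each gene, and short lines at the means. The groups overlap for pie-1 and hlh-1, and for each of the others every array at 83 min lies above every array at 0 min, with end-1 at 7.17 to 7.21 against 3.83 to 4.5.

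Regulators of neurons and of the anterior body gave the most rises by count among the lineage lists, 11 of 25 measured, against 6.4% of all genes. None fell, and the median change was 0.24. By share and by median the endoderm list rose more, with 3 of 5 and a median of 1.66. ceh-43, a Distal-less homologue of anterior cells, read 7.48, 7.49 and 7.68 at 83 min, against 3.53, 3.28, 3.17 and 3.52 at 0 min, a change of 4.18 ± 0.27 or 18.1-fold (limma, adjusted p = 3.74e-24). ztf-11, a Myt1-type zinc finger gene of neurogenesis, rose by 3.77 ± 0.28, the proneural achaete-scute homologue hlh-3 by 3.32 ± 0.23 and the Six-type homeobox gene ceh-32 by 2.82 ± 0.28. A dimmer ceh-32 probe set (0.73) was not called. hlh-3 read 7.64, 8.2 and 7.94 at 83 min, against 4.64, 4.65, 4.6 and 4.52 at 0 min. The other 14 genes lay between -0.1 and 0.3. Among 6 Hox genes 1 rose, ceh-13, the labial homologue and the first Hox gene of the embryo: it read 7.21, 7.15 and 6.42 at 83 min, against 3.33, 3.31, 2.86 and 3.22 at 0 min, a change of 3.75 ± 0.32. mab-5 changed by 0.14 and was not called.

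In the Notch pathway 4 of 15 measured genes rose and 6 fell, against 6.4% and 9.49% of all genes, and 5 were not called. The ligand gene apx-1, which signals at the 4-cell stage, fell by 1.82, and the maternal receptor glp-1 fell by 1.6, with 5.12, 5.12 and 4.92 at 83 min, against 6.96, 6.99, 6.2 and 6.43 at 0 min. The second receptor gene, lin-12, rose by 3.06 ± 0.34, with 7.05, 7.38 and 6.55 at 83 min, against 3.88, 3.8, 4.03 and 4.01 at 0 min. Of the receptor processing genes hop-1, a presenilin, fell by 2.49, sup-17, an ADAM protease, by 1.76 and pen-2 of the gamma-secretase by 1.1. The nuclear effector lag-1 fell by 1.34. A dimmer apx-1 probe set (-0.19) was not called. Of the target and downstream genes tbx-38 rose by 2.14 ± 0.28, tbx-37, its T-box sister gene, by 1.33 ± 0.24 and ref-1, a bHLH target gene, by 1.23 ± 0.28. The 2 T-box genes are near-identical copies, so their probe sets may share signal. tbx-37 and ref-1 were led by replicate 2 at 83 min, and without that array their changes were 0.96 and 0.9, under the 2-fold minimum. pen-2 lost its call under quantile normalization and with arrays centred on brighter probe sets (-0.96 in both), and without replicate 3 at 83 min (-0.88).

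In the Wnt and POP-1 asymmetry list, which orients divisions and separates sister fates, 3 genes rose and 2 fell among 22 measured, so falls were about as frequent as over all genes (9.49%). cfz-2, a Frizzled receptor gene, read 7.81, 8.1 and 7.61 at 83 min, against 4.33, 4.28, 4.74 and 4.38 at 0 min, a change of 3.41 ± 0.23 (limma, adjusted p = 1.99e-23). The Frizzled gene lin-17 rose by 1.37 and the beta-catenin gene sys-1 by 1.32, while hmp-2, the junctional beta-catenin gene, fell by 1.75 and the maternal Wnt ligand mom-2 by 1.72. A dimmer lin-17 probe set (0.66) was not called. Among 18 epidermis genes 3 rose and 2 fell. egl-18, a GATA gene of epidermal seam cells, rose by 1.92 ± 0.21 and noah-1, for an apical matrix protein, by 2.53 ± 0.37. The nuclear receptor gene nhr-23 fell by 1.57. Dimmer probe sets of noah-1 (0.8) and nhr-23 (0.2) were not called. In the body wall muscle list 2 of 24 genes rose, hnd-1 and the kindlin gene unc-112 (1.7 ± 0.34), and 1 fell, the calponin gene cpn-1 (-4.22 ± 0.33). Its other members were not called, and both counts are near the shares over all genes (6.4% higher, 9.49% lower).

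Genes of lysosomes and breakdown pathways gave 10 rises and no fall among 21 measured. asm-1, an acid sphingomyelinase gene, read 8.38, 8.86 and 8.5 at 83 min, against 4.12, 3.55, 3.86 and 3.9 at 0 min, a change of 4.72 ± 0.26 (limma, adjusted p = 3.24e-28). acp-2, an acid phosphatase gene, rose by 4.58 ± 0.3, with 7.69, 7.97 and 7.52 at 83 min, against 3.08, 3.19, 3.16 and 3.15 at 0 min. kynu-1, for kynureninase of tryptophan breakdown, rose by 4.32 ± 0.3 and hex-1, a hexosaminidase gene, by 2.25 ± 0.19. A dimmer hex-1 probe set (0.3) was not called. The DNase gene nuc-1 rose by 3.88 and the aspartyl protease gene asp-4 by 3.49. All 10 risers passed the midpoint between their 0 and 83 min means at 53 min or later.

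Chromatin genes changed both ways. Of 17 linker histone, HMG and histone H3.3 genes 6 rose and 4 fell, with a median change of 0.88. Beside his-24 and hmg-11, the linker histone-like gene hil-3 rose by 2.81 ± 0.36, with 8.47, 8.69 and 8.32 at 83 min, against 5.87, 5.56, 5.85 and 5.46 at 0 min, and its second probe set rose by 5.07 ± 0.27, so the size depends on the probe set. hmg-12, the sister gene of hmg-11, fell by 2.71, with 4.47, 4.31 and 4.35 at 83 min, against 7.72, 7.79, 6.11 and 6.71 at 0 min. The pair hmg-11 and hmg-12 thus changed in opposite directions, as did hil-3 and hil-5 (-2.2). Laminin genes of the basement membrane rose together, the alpha chain epi-1 by 4.15 ± 0.38, the gamma chain lam-2 by 2.15 ± 0.41 and the beta chain lam-1 by 1.56 ± 0.33, and the list otherwise held 1 fall, hmp-2, and 17 genes with no call. Dimmer second probe sets of lam-2 (0.8) and lam-1 (0.01) were not called.

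Cytoplasmic ribosomal protein genes had the most rises of the lists: 69 of 75 rose and none fell, with a median change of 1.72. The size differed between the scan days: 70 rose within that of replicates 1 and 2, with a median change of 2.1. Within that of replicates 3 and 4, which has 1 array at 83 min, the median change was 1.27. Scan day, the mention of food and the chip lot of replicate 3 cannot be told apart in this split. rps-16 read 10.4, 10.16 and 10.13 at 83 min, against 7.39, 6.57, 8.3 and 7.5 at 0 min, a change of 2.79 ± 0.26, and rpl-11.2 rose by 3.2 ± 0.33. The mean over the 75 genes was 8.41, 8.34 and 8.27 at 83 min, against 6.48, 6.03, 7.31 and 6.67 at 0 min. The 0 min arrays were thus far less alike than the 83 min arrays, with replicate 3 highest. Ribosomal protein genes are among the most abundant transcripts and have many similar copies and pseudogenes, so probe sets may share signal. Their median change was 0.72 in pie-1, 1.94 in mex-3; skn-1(RNAi) and 1.33 in N2 embryos, and no ribosomal protein gene passed the test of the difference from any of these genotypes.

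Maternal RNA regulators, the RNA-binding proteins that hold maternal messages silent or direct their decay, showed the deepest fall. Of 28 measured 21 fell and 1 rose, with a median change of -3.64, against 9.49% of all genes called lower. pos-1, a CCCH zinc finger gene needed for posterior fates, read 6.4, 5.29 and 5.31 at 83 min, against 10.75, 11.03, 11.04 and 10.86 at 0 min, a change of -5.25 ± 0.4, and its second probe set fell by 6.01. mex-3 read 3.78, 3.5 and 3.59 at 83 min, against 8.34, 8.19, 8.4 and 8.63 at 0 min, a change of -4.77 ± 0.25 or a 27.3-fold fall (limma, adjusted p = 6.12e-30). Of the Pumilio family puf-11 fell by 5.01, puf-5 by 4.22, puf-3 by 3.8, puf-7 by 3.67 and puf-8 by 1.95. The Y-box genes split: cey-2 fell by 4.8 and cey-3 by 4.87, while cey-1 changed by 1.03 ± 0.23, a called rise at the 2-fold minimum that was lost in 8 alternatives, with 0.99 under quantile normalization and 0.91 with a replicate block. Other falls were those of mex-6 (-4.5), spn-4 (-4.37), daz-1 (-4.05), gld-1 (-3.84), oma-2 (-3.81), mex-5 (-3.74), gld-3 (-3.62), cpb-3 (-3.55), mex-1 (-1.84), oma-1 (-1.71), rnp-8 (-1.42) and the poly(A) polymerase gene gld-2 (-1.04). The gld-2 call was lost with a replicate block (-0.95) and in 8 other alternatives, and 4 dimmer gld-2 probe sets were not called. Nor were dimmer probe sets of cey-1 (0.41 and 0.08), gld-1 (-0.6), cpb-3 (-0.98) and gld-3 (-0.35). Another gld-3 probe set fell by 2.04.

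Germ granule and germline genes gave 21 falls and no rise among 30 measured, with a median of -1.72. nos-2, a Nanos gene needed for primordial germ cells, read 3.44, 3.11 and 3.07 at 83 min, against 6.77, 7.78, 6.59 and 6.89 at 0 min, a change of -3.8 ± 0.32 or a 13.9-fold fall. meg-1, a germ plasm gene, fell by 4.46 on its brightest probe set, mip-2, for a LOTUS domain protein of P granules, by 4.46, and him-3, a gene for a meiotic chromosome axis protein, by 3.79. pgl-1, for a core P granule protein, fell by 2.05, while glh-1, a Vasa-type helicase gene, changed by 0.12. Eggshell and egg activation genes gave 9 falls and 1 rise among 19. cpg-2, for a proteoglycan of the eggshell, read 3.39, 3.4 and 3.04 at 83 min, against 8.28, 8.94, 8.69 and 8.56 at 0 min, a change of -5.34 ± 0.47. cpg-1 fell by 5.14 and egg-3, which acts in egg activation, by 3.23. The riser was cav-1, a caveolin gene, which read 11.1, 10.97 and 11.05 at 83 min, against 7.93, 7.64, 6.47 and 8.5 at 0 min, a 10.6-fold change.

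Outside these lists the largest falls by brightest probe set were those of gyg-2, a glycogenin gene of glycogen synthesis, of ima-2, an importin alpha gene, of mina-1, for a KH domain RNA-binding protein, and of the sequence-named T21C9.13, F18A1.7, C37C3.9 and W05F2.3. gyg-2 read 3.54, 3.53 and 3.46 at 83 min, against 9.49, 10.46, 8.63 and 9.01 at 0 min, a change of -5.89 ± 0.37 or a 59.2-fold fall (limma, adjusted p = 8.56e-25). T21C9.13 changed by -5.87, F18A1.7 by -5.72, C37C3.9 by -5.62, W05F2.3 by -5.25, mina-1 by -5.18 and ima-2 by -5.07. The other probe sets of F18A1.7 fell by 6.27, the largest fall of any probe set, and by 2.38, and second probe sets of C37C3.9 and mina-1 fell by 4.02 and 3.78. The genes with the largest falls were likewise picked among called falls without overlap, so the separation of their arrays follows from the rule.

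Polarity and cell cycle genes split by member. Of 15 polarity genes 4 fell and 2 rose: par-3, the PDZ scaffold of the anterior cortex, fell by 2.64, let-99, which acts in spindle positioning, by 2.17 and the 14-3-3 gene par-5 by 1.57, while par-2, the RING finger gene of the posterior cortex, rose by 1.8 ± 0.3 on its brightest probe set. Its other probe sets changed by -0.18 and -0.6 and were not called. Of 42 cell cycle and replication genes 5 fell and 5 rose, against 9.49% of all genes called lower and 6.4% higher, so the list as a whole did not stand out. cdc-25.1, the maternal phosphatase gene that drives early divisions, read 4.02, 3.38 and 3.49 at 83 min, against 7.53, 7.55, 6.69 and 7.66 at 0 min, a change of -3.73 ± 0.26. The cyclin genes cyb-2.2 and cyb-2.1 fell by 3.51 and 3.37, and as near-identical copies they may share signal, while the cyclin A gene cya-1 rose by 1.76 ± 0.28. Of 17 cell death and engulfment genes 5 fell, among them the engulfment genes ced-2 (-1.92), ced-7 (-1.4) and ced-6 (-1.39). ced-8, a scramblase-type gene, rose by 1.57 ± 0.29. A dimmer ced-7 probe set (-0.81) was not called. Of 15 chaperone and stress genes sip-1, a small heat shock protein of oocytes and embryos, fell by 3.21, with means of 8.56 ± 0.61 at 83 min (SD, n = 3) and 11.77 ± 0.44 at 0 min (SD, n = 4), hsp-1, an Hsp70 gene, fell by 1.63 and hsp-3, a BiP gene, rose by 1.9 ± 0.59. The hsp-3 call was lost without replicate 3 at 0 min (1.61) or replicate 1 at 83 min (1.58).

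Markers of tissues that the embryos should lack were low but not equal between the times. Of 23 sperm genes none was called (msp-76, at 0.93, reached 1.04 under quantile normalization and was then called), and their mean was 3.52, 3.53 and 3.62 at 83 min, against 3.31, 3.32, 3.29 and 3.33 at 0 min. The 5 measured yolk protein genes, which mark the mother's intestine, had means of 3.17, 3.26 and 3.39 at 83 min, against 4.13, 3.61, 4.75 and 3.22 at 0 min. They were thus high in replicates 3 and 1 at 0 min and near the bottom of the scale in replicate 4. vit-6 was called lower (-1.21 ± 0.21), with 3.2, 3.18 and 3.17 at 83 min, against 5.01, 4.06, 5.26 and 3.23 at 0 min, and without replicate 3 at 0 min it was not called. A dimmer vit-6 probe set (-0.25) was not called. vit-4 and vit-5 changed by -0.98 and -0.89. With a replicate block their changes were -1.31 and -1.33, and they were called. The 7 markers of oocytes and early embryos had means of 4.8, 4.45 and 4.47 at 83 min, against 8.2, 8.11, 7.18 and 7.54 at 0 min, so the same replicate 3 was also the lowest in maternal transcripts and the highest in ribosomal protein transcripts of the 0 min arrays. Without it 1343 probe sets rose and 2238 fell, and 21 maternal RNA regulators fell and 70 ribosomal protein genes rose. Within the scan day of replicates 3 and 4, with 1 array at 83 min and fewer calls throughout, 17 of 28 maternal RNA regulators fell, 26 of 52 early zygotic genes rose and 9 of 21 lysosomal and catabolic genes rose, but 7 of 30 germ granule and germline genes fell, against 21 in the whole comparison. Of the Notch genes 2 rose and 3 fell there, of the Wnt genes 1 rose, and of the cell cycle genes 1 rose and 2 fell. None of the polarity or linker histone and HMG genes fell there, and 1 basement membrane gene rose.

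The times between 0 and 83 min showed when the changes came. Called genes that fell had covered a median of 62.1% of their change by 41 min and 76.7% by 53 min, whereas called genes that rose had covered 30.1% and 53.5%. The first time at which a falling gene had passed the midpoint between its 0 and 83 min means was 23 min for 231, 41 min for 789, 53 min for 202, 66 min for 256 and 83 min for 147 of 1625 genes. For rising genes these counts were 98, 212, 302, 399 and 85 of 1096. These are descriptions, since the end points define the midpoint. The times also hold different arrays: there is no replicate 3 at 23 min and no replicate 2 at 53 min. Replicate 2 at 41 min was hybridized with 0.6 µg, against 1 µg for the other arrays. Whether this moved the order of the times was not tested. Eggshell genes were early, 4 of 9 past the midpoint at 23 min and another 4 at 41 min, and maternal RNA regulators followed, 14 of 21 at 41 min. pos-1 was later than most of them, with means of 10.92, 10.92, 9.83, 9.03, 7.17 and 5.67 over 0, 23, 41, 53, 66 and 83 min, while cpg-2 had means of 8.61, 6.38, 4.46, 3.5, 3.49 and 3.28. Among the risers ribosomal protein genes had 22 of 69 past the midpoint at 23 min, 13 more at 41 min and 33 at 53 min, and early zygotic genes 5 of 30 at 23 min and 16 more at 41 min. Neural genes came later, 7 of 11 at 66 min. ceh-43 had means of 3.38, 3.54, 3.92, 4.88, 7.12 and 7.55, and pha-4 of 3.5, 3.24, 3.3, 3.96, 5.45 and 6.69.

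A small set of genes rose and fell again within the interval. At 53 min 48 probe sets, or 0.213%, were called higher than at both 0 and 83 min, standing for 40 genes by their brightest probe set (0.234%). ZC239.20 had the largest excess: it read 2.79, 4.96, 7.71, 8.34, 6.32 and 4.6 on average over 0, 23, 41, 53, 66 and 83 min, 5.54 ± 0.25 above 0 min and 3.74 ± 0.26 above 83 min at 53 min. sdz-1 stood 3.42 above 0 min and 2.74 above 83 min, sdz-15 3.35 and 2.55, and Y38E10A.3 4.04 and 2.7. The regulators tbx-33, a T-box gene, and hlh-26, of the REF-1 bHLH family, stood 2.4 and 2.64 above 0 min and 2.59 and 2.4 above 83 min. The neighbouring names Y116A8C.20 and Y116A8C.19 completed the set named, with 2.26 and 3.49 above 0 min and 2.65 and 2.17 above 83 min. At 83 min tbx-33, hlh-26 and Y116A8C.20 differed from 0 min by -0.19, 0.23 and -0.39, and none of these was called.

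**Figure D4:**
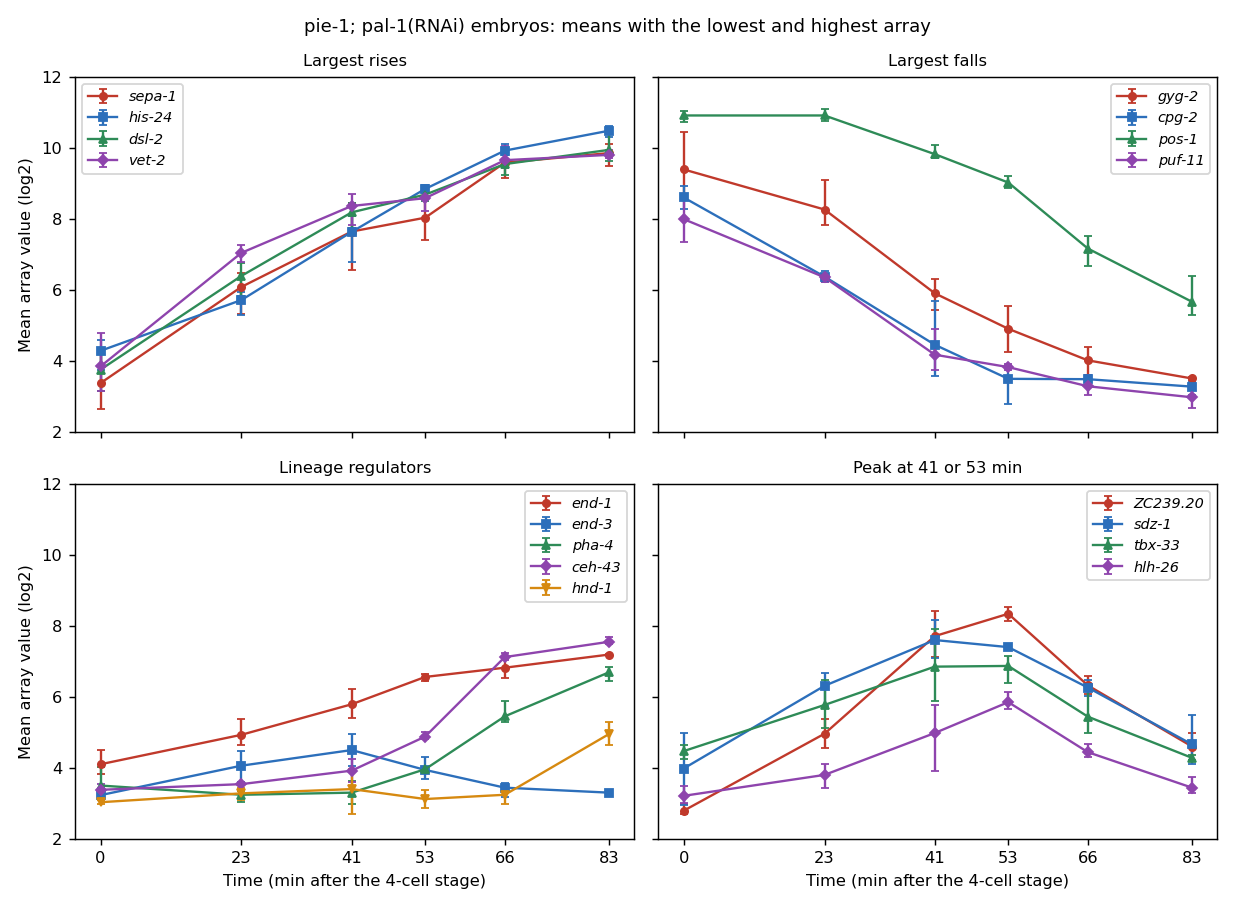
Mean array values (log2) against time from the 4-cell stage in pie-1; pal-1(RNAi) embryos, with bars to the lowest and highest array of each time, for 4 leading rises, 4 leading falls, 5 lineage regulators and 4 genes with a peak between the ends. cpg-2 and puf-11 are near the bottom of the scale by 53 min while pos-1 is still at 9.03, and ZC239.20 reaches 8.34 at 53 min and is back at 4.6 at 83 min.

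The change was compared with that in pie-1 embryos to ask what the interference against pal-1 adds within the pie-1 background. No probe set was called for a difference of the 2 changes (0 of 22548, limma, smallest adjusted p = 0.142). An unadjusted p under 0.05 was found for 899, and 162 of those had a difference of at least 2-fold. The 899 are fewer than the 1 in 20 that this threshold gives by chance. The comparison has 2 arrays a time on the pie-1 side and a median SE of 0.27, against 0.16 for the change itself, so smaller differences could not be seen and the absence of calls does not show that the changes were equal. For end-1 the change was 3.09 in pie-1; pal-1(RNAi) and 3.36 in pie-1 embryos, a difference of -0.27 ± 0.46, for pha-4 3.19 and 2.72 (0.47 ± 0.44), for ceh-43 4.18 and 4.32 (-0.15 ± 0.45) and for mex-3 -4.77 and -4.1 (-0.67 ± 0.41). The targeted gene pal-1 itself changed by 0.9 and -1.92 (2.82 ± 1.41) and was not called, with its wide spread at other times in the SE. Among the C lineage genes hnd-1 changed by 1.93 and 1.32 (0.6 ± 0.63), elt-1 by 1.8 and 2.53 (-0.73 ± 0.68) and cwn-1 by -0.43 and 1.42 (-1.85 ± 1.4). The SE of cwn-1 holds a pie-1; pal-1(RNAi) array at 41 min that read 11.06. At 83 min cwn-1 read 2.54 to 3.27 in pie-1; pal-1(RNAi) and 4.66 to 4.78 in pie-1 embryos, and at 0 min 2.66 to 5.27 and 3.08 to 3.53. The pie-1 arrays carry no scan day, and no scan day given is shared between genotypes, so in this and the next comparisons scan day and genotype cannot be told apart. The 7 pie-1; pal-1(RNAi) arrays are shared by all 3 comparisons.

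Against mex-3; skn-1(RNAi) embryos, which carry a mutation and an interference in 2 other maternal regulators, 862 probe sets or 3.82% were called: 333 changed more upward and 529 more downward in pie-1; pal-1(RNAi) embryos. The direction of this count depends on the scaling. The share of upward differences was 38.6%, but 52.8% under quantile normalization, 61.4% with arrays centred on brighter probe sets and 62.3% without replicate 5 of the mex-3; skn-1(RNAi) arrays at 0 min (376 upward, 228 downward). All 3 rising endoderm genes were among the upward differences. end-1 changed by 3.09 in pie-1; pal-1(RNAi) and 0.29 in mex-3; skn-1(RNAi) embryos, a difference of 2.81 ± 0.39 (limma, adjusted p = 8.92e-08), dve-1 by 3.25 and 0.59 (2.66 ± 0.41) and elt-7 by 1.66 and 0.25 (1.41 ± 0.31). pha-4 changed by 3.19 and 0.28 (2.91 ± 0.38) and ceh-51 by 3.36 and 1.01 (2.36 ± 0.4). Dimmer probe sets of dve-1 (0.36) and pha-4 (0.56) were not called for this difference. The levels show it too: pha-4 read at 83 min 6.45 to 6.85 in pie-1; pal-1(RNAi) and 3.02 to 4.05 in mex-3; skn-1(RNAi) embryos, and at 0 min 3.27 to 4.01 and 3.11 to 3.37.

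Of the 25 neural and anterior genes 9 differed upward and none downward, against 1.71% of all genes upward. ceh-43 changed by 4.18 in pie-1; pal-1(RNAi) and 0.17 in mex-3; skn-1(RNAi) embryos, a difference of 4.01 ± 0.38 (limma, adjusted p = 1.61e-13), ceh-32 by 2.82 and 0.36 (2.47 ± 0.4) and hlh-3 by 3.32 and 1.04 (2.29 ± 0.33). ceh-13 changed by 3.75 and 0.73 (3.02 ± 0.45), cfz-2 by 3.41 and -0.2 (3.61 ± 0.32) and tbx-38 by 2.14 and -0.29 (2.43 ± 0.4), while lin-12, at 3.06 and 1.75, did not pass (1.31 ± 0.48, adjusted p = 0.119). A dimmer ceh-32 probe set (0.69) was not called for this difference, while a second cfz-2 probe set was (2.92). Of 21 lysosomal and catabolic genes, a list chosen with earlier results of these data known, 9 differed upward and 1 downward. They hold 2 of the 6 largest upward differences, acp-2 (4.27 ± 0.42) and asm-1 (4.01 ± 0.37), beside ttc-36, for a tetratricopeptide protein (4.58 ± 0.49), C29F7.2 (4.32 ± 0.4), T19B10.2 (4.12 ± 0.47) and the F-box gene fbxb-96 (4.04 ± 0.38). None of the 6 read above 4.91 at 83 min in mex-3; skn-1(RNAi) embryos, where fbxb-96 read 3.51 to 4.19, against 7.85 to 8.4 in the 3 pie-1; pal-1(RNAi) arrays.

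Among the downward differences mex-3 was the largest (-5.13 ± 0.35): it changed by -4.77 in pie-1; pal-1(RNAi) and by 0.36 in mex-3; skn-1(RNAi) embryos, where it read 3.04 to 3.41 at 83 min and 2.64 to 3.25 at 0 min. The mutated gene marks the genotype. cwn-1 changed by -0.43 and 4.21 (-4.65 ± 1.2, or -4 without replicate 1 at 0 min), the lysine breakdown gene aass-1 by 0 and 3.52 (-3.52 ± 0.39) and F38C2.7 by 0.66 and 4.12 (-3.47 ± 0.39): they rose in mex-3; skn-1(RNAi) embryos and were not called in pie-1; pal-1(RNAi) embryos. ufm-1, for a ubiquitin-like modifier, changed by -2.93 and 0.91 (-3.84 ± 0.43) and Y51H7C.3 by -3.6 and -0.14 (-3.46 ± 0.41), and neither was called in mex-3; skn-1(RNAi) embryos. Of 28 maternal RNA regulators 7 differed downward and 1 upward, against 2.58% of all genes downward, with median changes of -3.64 in pie-1; pal-1(RNAi) and -1.77 in mex-3; skn-1(RNAi) embryos. The 1 upward was pie-1 (1.54 ± 0.32) and the 7 downward include mex-3, so both mutated genes are in these counts. hnd-1 and elt-1, by contrast, changed by 1.93 and 2.24 and by 1.8 and 2.04, with differences of -0.31 ± 0.54 and -0.24 ± 0.58 that did not pass.

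**Figure D5:**
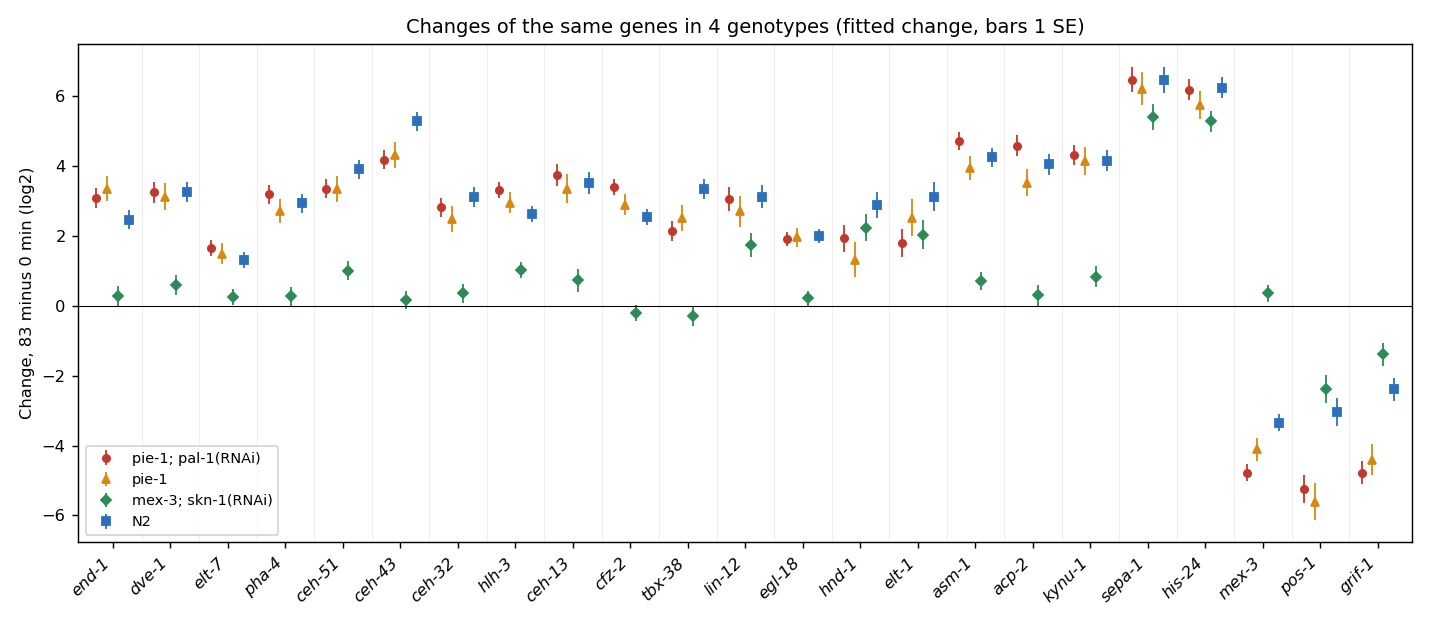
Fitted changes between 83 and 0 min (log2, bars 1 SE) of 23 genes in pie-1; pal-1(RNAi), pie-1, mex-3; skn-1(RNAi) and N2 embryos, from left to right within each gene. From end-1 to egl-18 the mex-3; skn-1(RNAi) change is the smallest of the 4, sepa-1 and his-24 rise by over 5 in all, and mex-3 changes by 0.36 in mex-3; skn-1(RNAi) and by -3.34 or less in the others.

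Against N2 embryos 181 probe sets or 0.803% were called, 102 upward and 79 downward. The share of upward differences, 56.4%, was 45.5% under quantile normalization. The N2 arrays carry letters at 0 min and numbers at 83 min and share no scan day where one is given, so time and scan day cannot be told apart on the N2 side. pie-1 was the largest upward difference (2.56 ± 0.32): it changed by -0.09 in pie-1; pal-1(RNAi) and -2.65 in N2 embryos, and again the mutated gene marks the genotype. cgh-1, a DEAD-box helicase gene of maternal RNA storage, changed by -0.87 and -3.35 (2.48 ± 0.34) and read 4.83 to 5.86 at 0 min in pie-1; pal-1(RNAi) and 7.94 to 8.39 in N2 embryos. C06A1.4 differed by 2.2, nlp-31, a neuropeptide-like gene, by 2.19, the ubiquitin-like gene ubl-5 by 2.12 and F14H3.6 by 2.08. The nlp-31, ubl-5 and F14H3.6 calls were lost without some single arrays, with differences of 2.04 to 2.07, 1.81 to 2.14 and 1.66 to 2.13. Downward differences were those of C37C3.9 (-2.61 ± 0.52), grif-1 (-2.39 ± 0.47), W06B4.1 (-2.3 ± 0.38), gyg-2 (-2.27 ± 0.53), argn-1, an arginase gene (-2.23 ± 0.45), and aqp-2, an aquaporin gene (-2.23 ± 0.44). Second probe sets of C37C3.9 (-1.25), argn-1 (-0.35) and aqp-2 (-1.57) were not called for this difference, while that of cgh-1 was (2.27). C37C3.9, grif-1, W06B4.1 and gyg-2 fell in both genotypes but further in pie-1; pal-1(RNAi) embryos: grif-1 changed by -4.78 and -2.39 and ended at 4.17 to 5.63 in pie-1; pal-1(RNAi) and at 7.77 to 7.95 in N2 embryos. aqp-2 rose in both, by 1.41 and 3.65, while a dimmer aqp-2 probe set changed by 0.77 in pie-1; pal-1(RNAi) embryos and was not called. None of the measured endoderm, MS and pharynx, neural, Hox, Notch or C lineage genes was called for a difference, among them end-1 (0.62 ± 0.39), ceh-43 (-1.11 ± 0.38, adjusted p = 0.194) and elt-1 (-1.33 ± 0.58, adjusted p = 0.428).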

How the data were processed

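The values are the log2 values that the authors deposited, 1 per probe set and array. That they are on a log2 scale was read from their range (1.79 to 12.72), and the probe summary and normalization are not given in the sources used here. Of 22625 probe sets 77 controls were left out. Symbols came from the platform annotation: 20766 probe sets had 1 symbol, 887 several and 895 none. A gene is its brightest probe set over the 7 arrays (17118 genes).

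A model of 40 group means over the 123 arrays was fitted with limma 3.58.1 in R 4.3.3, with empirical Bayes moderation and Benjamini-Hochberg adjustment over 22548 probe sets. It was tested on simulated data with independent noise, which hold no scan day or replicate effects. The number of arrays limits the precision. Differences between genotypes were contrasts in the same model. Deviations of same-numbered arrays from their group means correlated by 0.144, 0.17 and 0.33, and those of differently numbered arrays by -0.245 to 0.107. Same-numbered arrays also share a scan day, so these values do not settle whether the numbers pair the arrays. The main fit holds no replicate block, and a fit with one is among the alternatives.

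Named were the 12 largest called rises and falls without overlap, up to 4 genes a list by adjusted p (all called in 5 lists), the targeted genes, 6 differences each way per genotype and 8 genes with a peak at 53 min. Members and lists were chosen with earlier results of these data known. med-1, pes-10, vet-1, sdz-30, pgl-1, glh-1, hil-5, mom-2, nuc-1 and asp-4 were named after their values were seen. Alternatives were other scalings, filters, samples in the fit, blocks and arrays left out.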

Additional observations from a re-analysis of the deposited data

Results flagged for a closer look

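The difference between the changes of pie-1; pal-1(RNAi) and mex-3; skn-1(RNAi) embryos was itself tested, and 862 probe sets passed. Upward differences among the named genes were those of ttc-36 (4.58), C29F7.2 (4.32), acp-2 (4.27), T19B10.2 (4.12), fbxb-96 (4.04) and asm-1 (4.01). Downward differences were those of mex-3 (-5.13), cwn-1 (-4.65), ufm-1 (-3.84), aass-1 (-3.52), F38C2.7 (-3.47) and Y51H7C.3 (-3.46). Against N2 embryos 181 probe sets passed the same kind of test, with pie-1 (2.56), cgh-1 (2.48), C06A1.4 (2.2), nlp-31 (2.19), ubl-5 (2.12) and F14H3.6 (2.08) upward and C37C3.9 (-2.61), grif-1 (-2.39), W06B4.1 (-2.3), gyg-2 (-2.27), aqp-2 (-2.23) and argn-1 (-2.23) downward.

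In 9 of 189 groups of arrays looked at, 1 array stood far from the others. Chance gives about 1 in 20, so the count is no higher than chance, and the arrays are listed as a description. At 0 min in pie-1; pal-1(RNAi) embryos replicate 3 was low for cdc-25.1 (6.69, others 7.53 to 7.66), cyb-2.1 (8.06, others 9.24 to 9.35) and epi-1 (2.55, others 2.88 to 2.94). Replicate 1 was high for cwn-1 (5.27, others 2.66 to 2.69). Replicate 2 was low for nhr-25 (3.36, others 4.08 to 4.12) and high for ced-6 (5.98, others 5.26 to 5.35). Replicate 4 was high for pha-4 (4.01, others 3.27 to 3.38) and low for msp-78 (3.11, others 3.41 to 3.42). In mex-3; skn-1(RNAi) embryos at 83 min replicate 6 was high for F38C2.7 (8.32, others 8.05 to 8.08).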

How the results depend on the processing

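The count of 3381 calls between 83 and 0 min lay between 3260 and 3581 when each array was left out in turn, and all 3381 kept their sign in each of those fits. It fell to 1269 (595 higher, 674 lower) within the scan day of replicates 3 and 4, which holds 1 array at 83 min, and was 5092 (2158 higher) with no fold minimum. A replicate block gave 3371, of which 3223 had the same call, and ended the calls of cey-1 and gld-2 and added vit-4 and vit-5, with no other change among the named genes. Centring on brighter probe sets moved the median change of all probe sets to 0.138. No named change that was called reversed its direction. The sign turned for 7 named changes that were not called: with arrays centred on brighter probe sets for pie-1 (0.06), vab-7 (0.02), php-3 (0.02), scrt-1 (0.11) and nhr-25 (0.02), within the scan day of replicates 3 and 4 for pie-1 (0.16), vab-7 (0.14), cwn-1 (0.59) and nhr-25 (0.1), within that of replicates 1 and 2 for unc-120 (0.05) and scrt-1 (0.04), and with single arrays left out, where vab-7 ranged from -0.28 to 0.03, scrt-1 from -0.3 to 0.18, cwn-1 from -0.65 to 0.21 and nhr-25 from -0.34 to 0.14. aass-1, at 0, has no direction. The 0 calls against pie-1 were 1 under quantile normalization, 3 with only the groups compared and 0 to 1 with single arrays left out. The 862 calls against mex-3; skn-1(RNAi) were 400 with only the groups compared (60.8% upward) and 604 to 1154 with single arrays left out. The 181 calls against N2 were 290 with only the groups compared and 104 to 221 with single arrays left out: 119 without replicate 1 and 116 without replicate 2 of the 83 min arrays, and 104 without N2 replicate C at 0 min. The causes were not tested. Of 189 named values 50 changed their call in at least 1 alternative, most of them within the scan day of replicates 3 and 4 alone. Low signal limits changes near the bottom of the scale, where a level can fall no further.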

Other observations

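Gene families, grouped by the stem of their names, show members that the lists did not hold. Of 109 families with at least 15 measured genes a few are described here, chosen after their values were seen, so the counts are descriptions. The fbxb family of F-box genes was the largest set to rise: 72 of 95 rose and none fell, with a median change of 2.33, against 6.4% of all genes called higher. Its rises numbered 68 in pie-1, 54 in mex-3; skn-1(RNAi) and 70 in N2 embryos, and 27 members rose further in pie-1; pal-1(RNAi) than in mex-3; skn-1(RNAi) embryos by the test of the difference. F-box genes of this family are close copies, so probe sets may share signal. The Skp1-related skr genes, partners of F-box proteins in ubiquitin ligases, rose in 11 of 19 cases and fell in 1. Histone genes of the stem his, which holds the linker histone gene his-24 beside core histone genes, rose in 17 of 26 cases and fell in 1.

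Ribosomal protein genes of cytoplasm and mitochondria differed. In the rps and rpl families 25 of 27 and 31 of 35 rose, while in the mitochondrial mrps and mrpl families 0 of 22 and 2 of 34 rose and 5 and 8 fell, with medians of -0.5 and -0.35. In pie-1 embryos 4 rps and 5 rpl genes were called higher, and the difference between the genotypes passed the test for none of the ribosomal protein genes listed. Genes of Mediator (mdt) fell in 7 of 16 cases and rose in 2, those of nuclear pores (npp) fell in 7 of 26 and rose in 2, and those of vacuolar sorting (vps) fell in 9 of 32 and rose in 2, against 9.49% of all genes called lower.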
